A study of Homo sapiens with 6 samples.

Results

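The genes described here encode asparagine synthetase (ASNS) and 8 further enzymes that make or use asparagine, aspartate, glutamate, glutamine, proline, alanine and arginine, with the mitochondrial phosphoenolpyruvate carboxykinase PCK2 among them. These 9 genes (ASNS, ASS1, PCK2, GPT2, PYCR1, ALDH18A1, GLUD1, GLUL and GOT1) were chosen by name, with earlier results of the same samples known, out of the 50868 genes that were counted. All 9 passed the filter on low values and were among the 12015 genes tested. RNA-Seq of poly(A) RNA had been performed on HCT116 cells, an established human colorectal cancer line, transfected with the empty vector (pcCon, 3 samples) or with the YY2 overexpression vector (pcYY2, 3 samples). YY2 is a zinc finger transcription factor closely related to YY1, and cells of both groups carry the line's own YY2 gene. The methods have cells for overexpression experiments collected on the day after transfection. The study had asked which genes YY2 regulates in tumor cells, and the values of the 9 genes in pcYY2 against pcCon helped to choose them, so these values, and the calls of the 9 genes in the fit over all genes, are given as a description and support nothing further.

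Glutamate is the hub of non-essential amino acid synthesis. It is made from glutamine, or from 2-oxoglutarate by glutamate dehydrogenase, and it passes its amino group on to alanine, aspartate and serine or is reduced to proline. Aspartate is in turn the substrate for asparagine and for argininosuccinate on the way to arginine. Several of these enzymes, ASNS first of all, are textbook targets of the transcription factor ATF4, which is translated when amino acids are short or the endoplasmic reticulum is under stress. Proliferating tumor cells such as HCT116 use these routes to build protein, nucleotides and glutathione.

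The promoters of the genes on which the results turn are shown first, because ATF4 is known to bind some of these genes at a C/EBP-ATF element, written here as TGATGNAA and searched on both strands. The windows were taken from RefSeq on GRCh38.p14 and run from 250 bases before to 50 bases after an annotated start site, 5′ to 3′ on the strand of the gene. The table held 10 windows for 7 of the 9 genes, and none was printed for GPT2 and PYCR1. Capitals mark the element.
ASNS, chr7:97872359-97872658, minus strand: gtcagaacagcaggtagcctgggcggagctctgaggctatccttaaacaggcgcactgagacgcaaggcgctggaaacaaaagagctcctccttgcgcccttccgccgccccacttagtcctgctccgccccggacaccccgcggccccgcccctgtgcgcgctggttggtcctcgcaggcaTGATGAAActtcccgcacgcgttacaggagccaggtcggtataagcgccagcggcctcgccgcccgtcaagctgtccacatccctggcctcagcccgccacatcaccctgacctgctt
PCK2, chr14:24094061-24094360, plus strand: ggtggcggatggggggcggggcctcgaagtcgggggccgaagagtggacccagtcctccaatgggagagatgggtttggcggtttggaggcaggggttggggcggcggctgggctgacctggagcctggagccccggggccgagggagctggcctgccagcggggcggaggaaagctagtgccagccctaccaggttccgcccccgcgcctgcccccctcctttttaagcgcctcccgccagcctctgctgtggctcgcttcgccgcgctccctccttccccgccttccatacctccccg
ASS1, chr9:130444711-130445010, plus strand: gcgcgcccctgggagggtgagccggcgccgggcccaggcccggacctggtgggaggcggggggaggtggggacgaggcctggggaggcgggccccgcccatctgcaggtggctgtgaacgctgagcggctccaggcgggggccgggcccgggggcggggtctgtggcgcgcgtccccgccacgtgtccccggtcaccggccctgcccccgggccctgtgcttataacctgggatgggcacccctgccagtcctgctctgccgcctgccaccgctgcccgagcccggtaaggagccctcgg
GOT1, chr10:99430575-99430874, minus strand: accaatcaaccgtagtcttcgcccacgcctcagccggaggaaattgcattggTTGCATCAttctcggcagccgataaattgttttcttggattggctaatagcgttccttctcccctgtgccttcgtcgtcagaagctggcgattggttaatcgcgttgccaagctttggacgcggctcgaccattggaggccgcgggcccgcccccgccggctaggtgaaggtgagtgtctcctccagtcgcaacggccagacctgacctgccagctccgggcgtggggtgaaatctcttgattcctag

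The element was present in 2 of the 10 windows, those of ASNS and GOT1, against 1270 of all 35116 windows (3.62%). In ASNS it lay on the strand of the gene at positions -68 to -61 from the start site (chr7:97872469-97872476), a place that GENCODE 44 puts inside an exon of 2 longer transcripts. In GOT1 it lay on the opposite strand at positions -198 to -191 (chr10:99430815-99430822), outside any annotated transcript of GOT1. Transcripts of other genes over these sites were not looked up. The printed windows of PCK2 and ASS1 do not hold these letters. A list of ATF4 and 19 of its known targets had 27 windows, which covered 16 of its 20 genes. Of these windows 5 held the element (18.5%), and these sites are set here beside those of ASNS and GOT1 with 11 bases on either side where the window reaches so far.
ASNS: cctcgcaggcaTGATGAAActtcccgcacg
GOT1: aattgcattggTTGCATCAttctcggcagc
ATF3: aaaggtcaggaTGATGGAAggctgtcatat
SLC3A2: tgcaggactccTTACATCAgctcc
JDP2: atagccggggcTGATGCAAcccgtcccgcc
CHAC1: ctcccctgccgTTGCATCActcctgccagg
CEBPG: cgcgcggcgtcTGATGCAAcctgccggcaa
The ASNS site read TGATGAAA, while those of JDP2 and CEBPG read TGATGCAA and those of GOT1 and CHAC1 read the same 8 bases on the other strand. In the test of pcYY2 against pcCon described below, SLC3A2 was called lower (log2 fold change -0.32). CHAC1 (-1.10, SE 0.327, adjusted p = 0.0783, edgeR) and CEBPG (-0.21, SE 0.054, adjusted p = 0.0530, edgeR) were below 0 but not called. ATF3 and JDP2 were not tested. Every pcYY2 sample lay below every pcCon sample for SLC3A2, CHAC1, CEBPG and JDP2, as for 19.9% of all tested genes, but not for ATF3. The element was also found at SLC25A11 (-71 to -64) and BCAT1 (-48 to -41), genes of the pathway lists described below. SLC25A11 was not called and had a log2 fold change above 0, and BCAT1 had 0 counts in all 6 samples. AANATGGC, the core that YY1 is known to recognize, was searched in the same way and was found in 0 of the 10 windows of the 9 genes and in 2310 of all 35116 (6.58%). A match or its absence describes only the letters of these windows, and no binding was measured here.

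Between 15158360 and 29572882 reads were counted per sample. A gene at the floor of 3 counts corresponds to at most 0.198 CPM, counts scaled to the sample total, a limit that covers counting error only. Nothing in the sources states whether the 3 samples of a group were separate cultures, so the errors and p-values describe the spread between these samples, which may be technical. The FPKM of YY2, which is its count scaled to a gene length and to the sample total, was 2.16 ± 0.397 in pcCon and 11.2 ± 0.333 in pcYY2 (mean ± SD, n = 3 each). The epithelial markers EPCAM, CDH1, KRT8, KRT18 and KRT19 were all expressed, with a summed FPKM of 297 to 309 in pcCon and of 389 to 424 in pcYY2. This sum moved with the groups and its part in the results was not tested. In the edgeR test described below, KRT8 (log2 fold change 0.67) and KRT19 (0.60) were called higher in pcYY2. EPCAM (0.10), CDH1 (0.22) and KRT18 (0.13) were not called. Of the markers of other cells, PTPRC and CD3E of leukocytes summed to at most 0.304 FPKM and PECAM1 and VWF of endothelium to at most 0.157. The fibroblast genes COL1A2 and DCN had no count in any sample, while COL1A1 was at 1.90 to 2.17 FPKM in pcCon and at 2.16 to 2.66 in pcYY2. In bulk RNA of a cell population, fewer cells that express a gene and less RNA per cell cannot be told apart.

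Of the 9 genes, 8 were lower in pcYY2 than in pcCon by their log2 fold change and GOT1 alone was above 0. ASNS stood apart with a level in pcYY2 of 30.1% of that in pcCon, followed by PCK2 at 49.1% and ASS1 at 75.2%. The other 6 lay between 80.9% (PYCR1) and 103% (GOT1). At an adjusted p of 0.05 or less in the quasi-likelihood test of edgeR, adjusted by the Benjamini-Hochberg method over all tested genes, 3 of the 9 (ASNS, PCK2 and ASS1) were called lower and 0 higher, where 583 (4.85%) and 543 (4.52%) of all 12015 tested genes were called lower and higher. At an unadjusted p under 0.05 the counts were 7 lower and 0 higher (14.5% and 14.4% of all tested genes), and DESeq2 called 4 lower and 0 higher (6.29% and 6.18% of the 11543 genes to which it gave an adjusted p). In 7 of the 9 every pcYY2 sample lay below every pcCon sample, and in 0 every pcYY2 sample lay above, while over all tested genes this was so for 19.9% and 15.9%. The median log2 fold change was -0.20 over the 9 genes and 0.0020 over all tested genes. As the genes were chosen with this contrast known, nothing is read from these counts beyond the description.

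**Figure D1:**
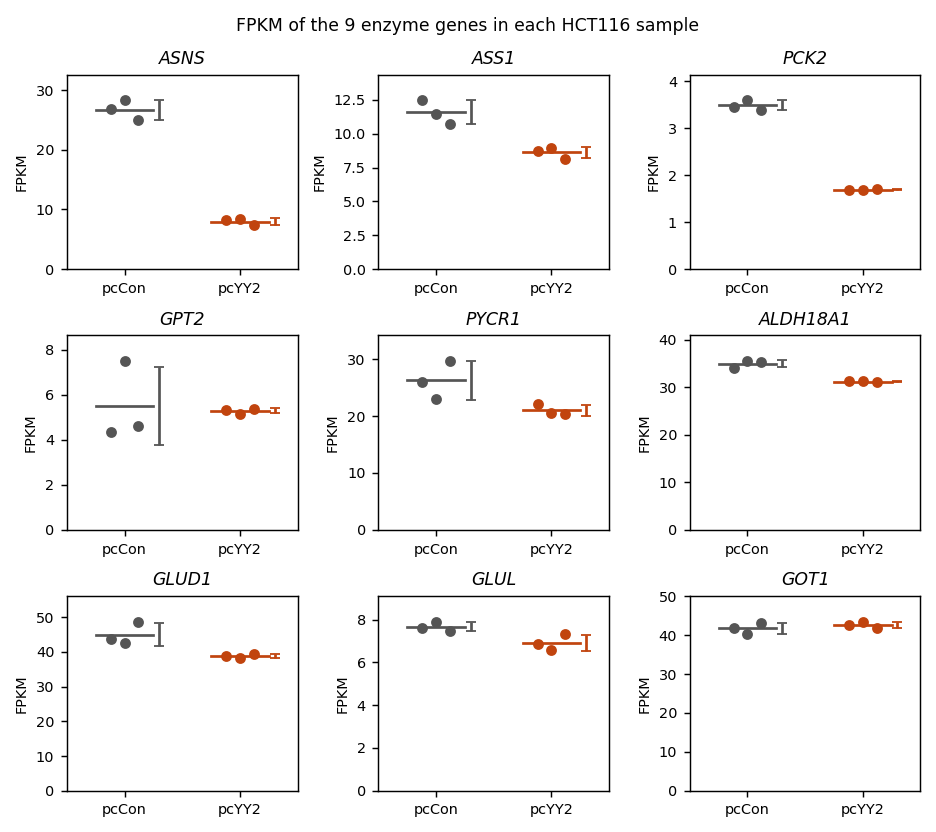
FPKM (vertical axis, starting at 0 in each panel) of the 9 genes in each of the 3 pcCon (grey) and 3 pcYY2 (red) samples, with the mean as a horizontal line and the SD as a bar at its side. The groups are far apart for ASNS (24.97 to 28.4 against 7.33 to 8.31) and PCK2 (3.40 to 3.61 against 1.69 to 1.71), and they overlap for GPT2 and GOT1.

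ASNS (ENSG00000070669, chr7:97852118-97872542 on the minus strand of GRCh38) transfers the amide group of glutamine to aspartate and so makes asparagine. Its FPKM was 26.9, 28.4 and 24.97 in pcCon samples 1 to 3 and 8.24, 8.31 and 7.33 in pcYY2 samples 1 to 3. These values rest on 3676 to 5028 counts in pcCon and 1226 to 2387 in pcYY2. The lowest pcCon sample was thus far above the highest pcYY2 sample, and the spread within each group was small (SD of 1.70 and 0.550). The log2 fold change was -1.73 (SE 0.074), which put ASNS among the 15 lowest values of all 12015 tested genes. It was called under all 12 alternative settings, with log2 fold changes between -1.78 and -1.63. Its site with the C/EBP-ATF element is the one printed above.

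PCK2 (ENSG00000100889, chr14:24094053-24110598, plus strand) makes phosphoenolpyruvate from oxaloacetate inside mitochondria and links the citric acid cycle to the synthesis of serine and glycerol. It was at 3.46, 3.61 and 3.40 FPKM in pcCon and at 1.69, 1.69 and 1.71 in pcYY2. All pcYY2 samples lay close together at about the same level, well below the pcCon samples. They lay closer together than counting error alone would give at 300 to 580 counts, so this closeness describes these 3 samples only. The log2 fold change was -1.03 (SE 0.064), on 598 to 764 counts in pcCon and 300 to 580 in pcYY2. The alternatives gave between -1.04 and -0.74, the value nearest to 0 being that of limma on log2(FPKM + 1), a scale that understates the change of low genes, and PCK2 was called in all 12.

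ASS1 (ENSG00000130707, chr9:130444929-130501274, plus strand) joins citrulline and aspartate to argininosuccinate, the rate-limiting step of arginine synthesis. Its FPKM was 12.5, 11.5 and 10.7 in pcCon and 8.76, 8.95 and 8.14 in pcYY2. The groups did not overlap, but the gap between them was narrower than for ASNS and PCK2. The log2 fold change was -0.41 (SE 0.078). The call held in 6 of the 12 alternatives. It was lost with a replicate block and without pcCon sample 1 or 2 or any 1 of the 3 pcYY2 samples, where the log2 fold change stayed between -0.44 and -0.36 and the adjusted p of edgeR between 0.0513 and 0.0828.

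Proline is made from glutamate by ALDH18A1, which activates and reduces glutamate to the semialdehyde, and by PYCR1, the mitochondrial reductase of the last step. PYCR1 (ENSG00000183010, chr17:81932384-81942412, minus strand) was at 26.0, 23.1 and 29.7 FPKM in pcCon and at 22.1, 20.5 and 20.5 in pcYY2. The lowest pcCon and the highest pcYY2 sample were neighbours, with a gap smaller than the spread among the pcCon samples. ALDH18A1 (ENSG00000059573, chr10:95605929-95656706, minus strand) was at 34.1, 35.6 and 35.3 FPKM in pcCon and at 31.3, 31.3 and 31.1 in pcYY2. This was a small difference between very tight groups, with coefficients of variation of 2.24% in pcCon and 0.385% in pcYY2, the smallest among the 9 genes in either group. Counting error alone would give a larger spread than 0.385% at the 2445 to 4709 counts in pcYY2, so this tightness describes these 3 samples only. The log2 fold changes were -0.31 (SE 0.094) for PYCR1 and -0.15 (SE 0.043) for ALDH18A1. Neither was called, and each was called in 1 of the 12 alternatives, PYCR1 by DESeq2 and ALDH18A1 by limma.

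GLUD1, glutamate dehydrogenase, interconverts glutamate and 2-oxoglutarate in mitochondria, and GLUL, glutamine synthetase, adds ammonia to glutamate. GLUD1 (ENSG00000148672, chr10:87050486-87094866, minus strand) was at 43.8, 42.5 and 48.7 FPKM in pcCon and at 38.7, 38.2 and 39.3 in pcYY2. GLUL (ENSG00000135821, chr1:182381704-182392206, minus strand) was at 7.63, 7.91 and 7.47 FPKM in pcCon and at 6.85, 6.60 and 7.32 in pcYY2. In both genes the pcYY2 samples lay just below the pcCon samples, and for GLUL the nearest values of the groups differed by less than the spread within either group. The log2 fold changes were -0.20 (SE 0.062) and -0.13 (SE 0.055), and neither gene was called with any of the 12 alternatives.

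The aminotransferases move the amino group of glutamate. GPT2 (ENSG00000166123, chr16:46884378-46931297, plus strand), which makes alanine from pyruvate in mitochondria, was at 4.37, 7.52 and 4.64 FPKM in pcCon and at 5.35, 5.16 and 5.38 in pcYY2. The second pcCon sample was far above all others, and the pcYY2 samples lay between it and the other 2 pcCon samples. The coefficient of variation of GPT2 in pcCon was 31.7%, where the median over all tested genes was 6.35% and the other 8 genes were at 12.7% or less. The log2 fold change was -0.04 (SE 0.198), and without the second pcCon sample it was 0.25 and the gene was not called. GOT1 (ENSG00000120053, chr10:99396870-99430624, minus strand), the cytosolic enzyme that converts aspartate and oxaloacetate into one another, was at 41.9, 40.3 and 43.0 FPKM in pcCon and at 42.6, 43.5 and 41.9 in pcYY2. These groups overlapped, and the log2 fold change of 0.05 (SE 0.049) stayed between 0.02 and 0.07 over the alternatives. Its promoter window holds the element on the other strand than that of ASNS.

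**Figure D2:**
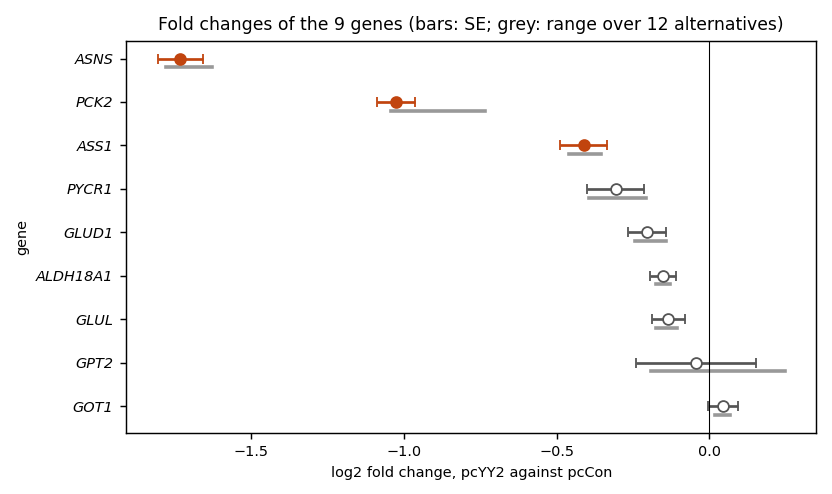
Log2 fold change of pcYY2 against pcCon (horizontal axis) for the 9 genes, as points with bars of 1 SE from edgeR, filled where the adjusted p was 0.05 or less. The grey line under each point spans the 12 alternatives and crosses 0 for GPT2 only, from -0.19 to 0.25.

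Levels of different genes were compared as reads per kilobase of the canonical GENCODE 44 transcript scaled to the total count as FPKM is. The deposited FPKM could not serve for this, because the length it implies was 1.18 to 5.33 times the canonical transcript length for the 9 genes, with a median of 2.12 over 11917 genes. On the scale per kilobase of canonical transcript, ASNS was the most abundant of the 9 in pcCon at 109 ± 6.94, above PYCR1 (79.2 ± 10.1), GOT1 (66.8 ± 2.17), GLUD1 (53.3 ± 3.90), ALDH18A1 (53.2 ± 1.19) and ASS1 (34.0 ± 2.59). GLUL (21.9 ± 0.627), PCK2 (18.6 ± 0.571) and GPT2 (16.3 ± 5.17) had the lowest levels (mean ± SD, n = 3 each). GLUD1 and ALDH18A1 overlapped in their samples, as did GPT2 with both PCK2 and GLUL, and the other neighbours in this order did not. The order depends on the length used. By the deposited FPKM, ASNS ranked 4 of the 9 in pcCon, after GLUD1, GOT1 and ALDH18A1. The length implied for ASNS was 4.07 times the canonical one, and that for GLUD1 1.18 times.

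In pcYY2 the order began with GOT1 (68.3 ± 1.29) and PYCR1 (63.4 ± 2.87), followed by ALDH18A1 (47.5 ± 0.183) and GLUD1 (45.8 ± 0.684). ASNS came after these at 32.4 ± 2.24, just above ASS1 at 25.3 ± 1.24. GLUL was at 19.8 ± 1.05, GPT2 at 15.7 ± 0.348 and PCK2 last at 9.03 ± 0.068. No neighbours in this order overlapped. On this scale ASNS thus went from the top of the order to below 4 other enzymes of the group, and PCK2 went below GPT2. By the deposited FPKM, PCK2 was below GPT2 in pcCon already (3.49 against 5.51).

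**Figure D3:**
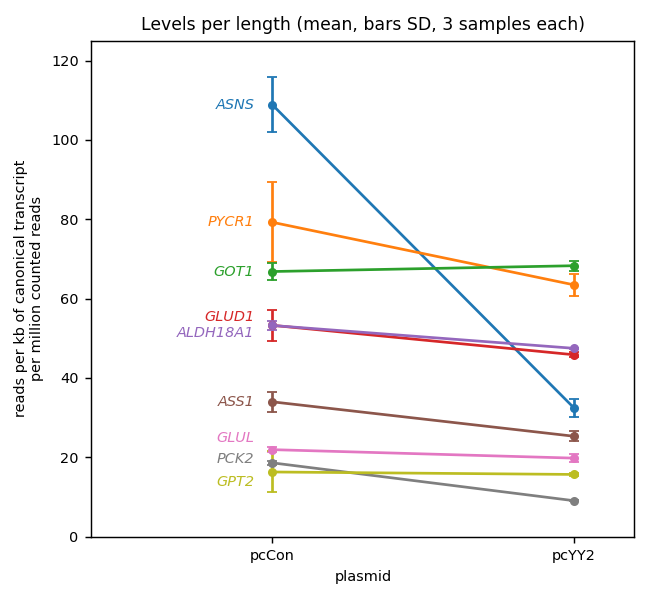
Reads per kilobase of canonical transcript, scaled to the total count (vertical axis, from 0), of the 9 genes in pcCon and pcYY2, as means of 3 samples with bars of 1 SD. The line of ASNS falls from 109 to 32.4 and crosses those of PYCR1, GOT1, GLUD1 and ALDH18A1, that of PCK2 goes from 18.6 to 9.03, that of ASS1 from 34.0 to 25.3 and that of GOT1 from 66.8 to 68.3.

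Several of the 9 enzymes have isoenzymes that run the same reaction, often in another compartment. On the scale per kilobase, GOT1 made up 42.5 ± 1.27% of GOT1 plus its mitochondrial partner GOT2 in pcCon and 43.98 ± 1.03% in pcYY2. The samples of the groups overlapped in this share. PYCR3 (log2 fold change 0.34, SE 0.189), GOT2 (-0.04, SE 0.044) and ASNSD1 (0.29, SE 0.171), which resembles ASNS in part of its sequence, were not called, with edgeR adjusted p-values of 0.290, 0.546 and 0.315. The cytosolic PCK1 had 0 counts in all 6 samples, so that PCK2 was the only one of the pair with reads, and the cytosolic alanine aminotransferase GPT had 0 to 21 counts per sample.

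Reads could be shared with near-identical copies or overlapping genes, and whether the strand was used in counting is not given in the sources used here. GLUD2 is an intronless copy of GLUD1, and its counts were 14.8 ± 0.454% of those of GLUD1 in pcCon and 15.1 ± 1.34% in pcYY2. This ratio lay between 14.3% and 16.7% in every sample, and since reads that match both copies cannot be told apart, the split between these genes is uncertain. The 10 pseudogenes of ASS1 held 20 counts over all samples, 0.387% of those of ASS1, and the 4 of ASNS held 2. GLUD1 overlaps at its start with the start of SHLD2, listed as FAM35A, on the opposite strand, which had 1010 to 1655 counts per sample. PCK2 lies within NRL on the opposite strand, which had 4 to 23 counts.

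The genes around these enzymes were described with 5 pathway lists of 64 further genes, written from general knowledge, of which 40 were tested. Of these 40, 3 were called lower (PSAT1, OAT and GFPT2) and 1 higher (ADSL), beside the 4.85% and 4.52% of all tested genes given above, and their median log2 fold change was 0.0029. In 13 of them the pcYY2 samples lay below all pcCon samples and in 7 above, where this was so for 19.9% and 15.9% of all tested genes. Each list is given in turn, from the one around ASNS outward.

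Of the asparagine and aspartate list, 12 of 18 genes were tested, 0 were called lower and 1 higher, with a median log2 fold change of 0.08. ADSL, adenylosuccinate lyase of purine synthesis, rose from 7.23 ± 0.602 to 8.83 ± 0.406 FPKM (log2 fold change 0.30, SE 0.073, adjusted p = 0.0498, edgeR), and DESeq2 alone among the 12 alternatives called it as well. Without any 1 of the 6 samples it was not called (0.23 to 0.34). CAD, which uses aspartate for pyrimidines, was at 0.18 (SE 0.049), and the carriers SLC25A11 and SLC25A13 were at 0.20 (SE 0.067) and 0.18 (SE 0.088). MDH2, mitochondrial malate dehydrogenase, was at -0.15 (SE 0.056). None of these 4 was called.

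In the proline and ornithine list 5 of 7 genes were tested, with 1 called lower, 0 higher and a median log2 fold change of -0.09. OAT, ornithine aminotransferase, which exchanges ornithine and the semialdehyde of glutamate, was at 34.0, 37.5 and 37.8 FPKM in pcCon and at 29.6, 27.9 and 29.3 in pcYY2. Its groups did not overlap and it fell by a log2 fold change of -0.32 (SE 0.058, adjusted p = 0.0232, edgeR), a call that held in 7 of the 12 alternatives and was lost with a replicate block and without pcCon sample 2 or 3 or pcYY2 sample 2 or 3 (-0.33 to -0.29). ALDH4A1, which oxidizes the semialdehyde back to glutamate, was at -0.09 (SE 0.086), and PEPD, which frees proline from dipeptides, was at 0.0034 (SE 0.094). The proline-degrading PRODH had 0 counts in every sample.

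Of the glutamate, glutamine and aminotransferase list, 11 of 16 genes were tested, 2 were called lower and 0 higher, and the median log2 fold change was -0.18. PSAT1, which transfers the amino group of glutamate in serine synthesis, was at 102, 107 and 112 FPKM in pcCon and at 62.2, 60.5 and 60.2 in pcYY2. It fell by a log2 fold change of -0.80 (SE 0.049, adjusted p = 0.00125, edgeR) and was called in all 12 alternatives. GFPT2, which uses glutamine to make glucosamine-6-phosphate, fell from 3.29 ± 0.192 to 2.43 ± 0.0468 FPKM (-0.42, SE 0.084, adjusted p = 0.0294, edgeR). It was called in 4 of the 12 alternatives and lost its call without any 1 of the 6 samples (-0.46 to -0.38). NIT2 (-0.24, SE 0.064) and the glutamate carrier SLC25A22 (0.22, SE 0.061) were not called.

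In the arginine and urea cycle list 6 of 13 genes were tested and 0 were called by edgeR, with a median log2 fold change of 0.11. At an unadjusted p under 0.05 the counts were 2 lower and 2 higher, beside the 14.5% and 14.4% given above. ASL, which splits the argininosuccinate made by ASS1, was at 5.65 ± 0.274 FPKM in pcCon and 6.57 ± 0.383 in pcYY2 (0.23, SE 0.074, adjusted p = 0.0914, edgeR), on the other side of 0 from ASS1. NAGS was at 0.29 (SE 0.0998), SLC25A15 at -0.24 (SE 0.092), CPS1 at -0.12 (SE 0.050) and ARG2 at 0.14 (SE 0.150). In the phosphoenolpyruvate and pyruvate list 6 of 10 genes were tested, 0 were called by edgeR and 0 had an unadjusted p under 0.05. ENO1, ENO2, PKM, ME1 and PC, enzymes next to PCK2 in glycolysis and pyruvate metabolism, lay between -0.07 and 0.23. None of the 10 genes named from both lists was called by DESeq2 or limma.

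**Figure D4:**
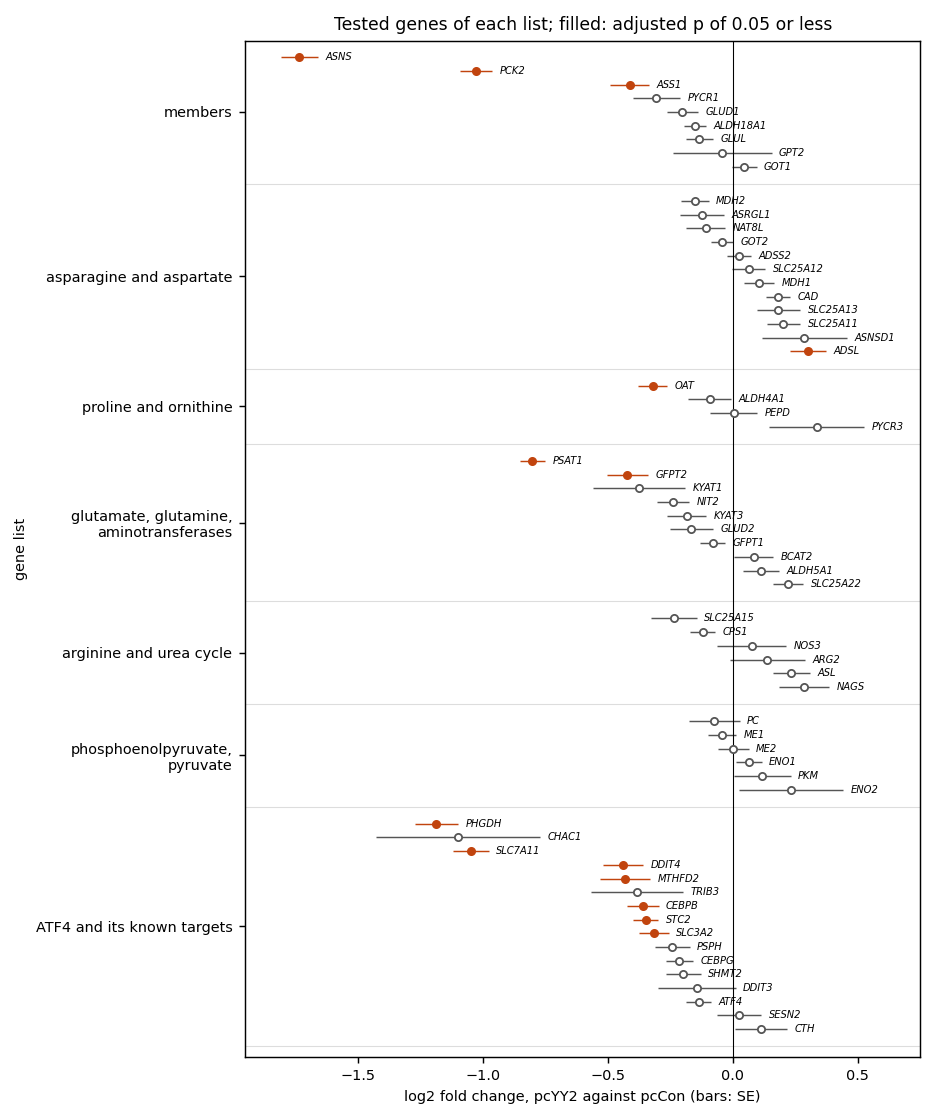
Log2 fold change of pcYY2 against pcCon (horizontal axis) for tested genes of the 9 enzymes, the 5 pathway lists and the ATF4 list (vertical axis), with bars of 1 SE and filled points where the edgeR adjusted p was 0.05 or less. ASNS at -1.73 is the lowest of all genes drawn, the pathway lists spread on both sides of 0, and 14 of the 16 genes of the ATF4 list lie below 0.

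A list of ATF4 and 19 genes known as its targets had 16 tested genes, of which 7 were called lower and 0 higher (4.85% and 4.52% over all tested genes), 12 did not overlap between the groups with pcYY2 lower (19.9% over all tested genes), and 14 were below 0. The median log2 fold change was -0.33, with values from -1.19 to 0.11. Besides ATF4 and the genes given above with their C/EBP-ATF element, values are given only for the 5 genes of smallest p, so they do not stand for the whole list. SLC7A11, the cystine transporter, and its partner SLC3A2 are in this list, and SLC7A11 is a gene the study picked from these samples, so the list is not independent evidence of its direction. PHGDH, the first enzyme of serine synthesis, was at 34.3, 37.0 and 34.2 FPKM in pcCon and at 13.4, 16.0 and 16.4 in pcYY2, and it fell by a log2 fold change of -1.19 (SE 0.086, adjusted p = 0.0017, edgeR). SLC7A11 fell from 19.9 ± 0.296 to 9.55 ± 0.909 FPKM (-1.05, SE 0.072, adjusted p = 0.0014, edgeR). STC2 (-0.35, SE 0.050), CEBPB (-0.36, SE 0.063) and DDIT4 (-0.44, SE 0.080) fell as well, with adjusted p-values of 0.0118, 0.0215 and 0.0239 in edgeR. PHGDH and SLC7A11 were called in all 12 alternatives, STC2 in 9, DDIT4 in 7 and CEBPB in 6. Leaving out pcCon sample 2 or 3 ended the call of each of these last 3 genes, as did pcCon sample 1 or pcYY2 sample 3 for DDIT4 and CEBPB and pcYY2 sample 2 for CEBPB, with log2 fold changes of -0.34 and -0.34 for STC2, -0.48 to -0.40 for DDIT4 and -0.37 to -0.33 for CEBPB. ATF4 mRNA itself was at 119, 122 and 122 FPKM in pcCon and at 103, 115 and 109 in pcYY2, with a log2 fold change of -0.14 (SE 0.049, adjusted p = 0.125, edgeR), and was not called under any of the 12 alternatives. ATF4 protein was not measured in these data.

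The tested genes whose pattern over the 6 samples was most like that of ASNS were found by the root mean square difference of log2 CPM, each gene centred on its own mean. They were EGR1 (0.0757), an immediate early transcription factor, TNS4 (0.173), a tensin of focal adhesions, CSTA (0.217), a cysteine protease inhibitor, PHGDH (0.302) and FAM195CP (0.322). EGR1 was at 16.9, 17.1 and 15.7 FPKM in pcCon and at 4.82, 5.14 and 5.06 in pcYY2, a difference of about the same size as that of ASNS in every sample. CSTA and FAM195CP were at 0.415 to 0.667 and 0.128 to 0.662 FPKM in pcYY2, so they passed the filter at a mean FPKM of 1 only through their pcCon values. Among the other 8 enzymes PCK2 was closest to ASNS with 0.367, followed by ASS1 with 0.664 and PYCR1 with 0.734, and GPT2 was farthest with 0.893. The samples share 1 cell line and 2 conditions, so the measure follows mainly the size of the difference between the groups.

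**Figure D5:**
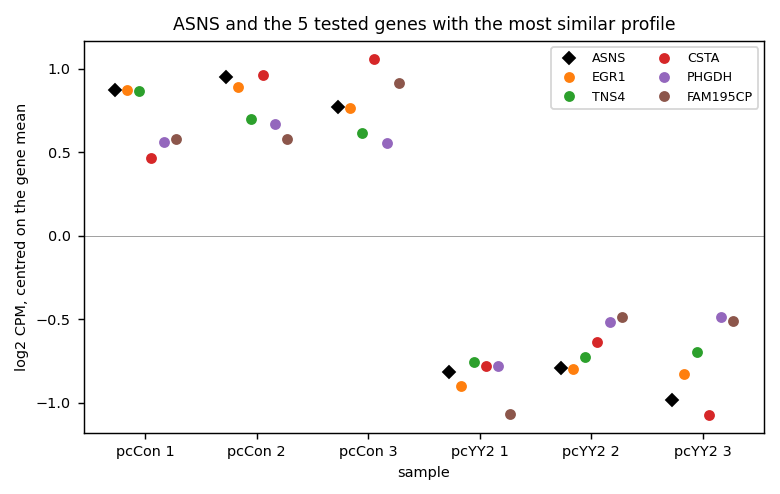
Log2 CPM centred on the mean of each gene (vertical axis) in each of the 6 samples (horizontal axis) for ASNS (black diamonds) and the 5 tested genes with the smallest difference from it (coloured points). All 6 genes lie above 0 in the pcCon samples and below 0 in the pcYY2 samples, which follows from their choice by closeness to ASNS. EGR1 follows ASNS most closely.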

How the data were processed

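The authors sequenced poly(A) RNA of 6 samples of HCT116 cells, mapped the filtered reads to GRCh38 with Tophat, computed FPKM with Cufflinks and tested with Cuffdiff; the submitters' processing notes also name HTSeq and Bowtie2. For each gene and sample the authors deposited counts, which are whole numbers and not normalized, and FPKM, which equal the count divided by a fixed length and the sample total (largest deviation 0.00191% over 12107 genes). Value columns that match none of the samples numbered 0. Counts were tested as pcYY2 against pcCon with edgeR 4.0.16 (R 4.3.3, quasi-likelihood, TMM) on genes whose FPKM averaged 1 or more, adjusted by Benjamini-Hochberg over all 12015, and called at 0.05 or less. SE is the size of the log2 fold change over the root of F. Sample totals ranged from 15158360 to 29572882. Of the gene identifiers, 97.6% were found in GENCODE 44.

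Alternatives were upper quartile scaling, DESeq2 1.42.0, limma 3.58.1 with trend on log2(FPKM + 1), a mean FPKM of 0.1 or no filter, a replicate block, and leaving out each sample. The tests were tried on data with known changes made from these samples. The enzymes and lists were chosen with earlier results of these data known. Named were all 9 enzymes, at most 5 genes of smallest p per list, isoenzymes, ATF4, YY2, copies and overlapping genes, and the 5 genes most like ASNS. Genes with a C/EBP-ATF element in the ATF4 list and the pathway lists were named after the search. Some genes that were tested are not reported here. Tables and plots were made in Python 3.11.15 (pandas 2.3.3, matplotlib 3.10.9).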

Additional observations from a re-analysis of the deposited data

How the results depend on the processing

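Of the log2 fold changes of named genes under the 12 alternatives, 470 kept their direction and their side of the threshold, 44 lost a call, 6 gained one and 8 turned the direction. The turns were GPT2 at 0.2484 without the second pcCon sample (-0.1894 to 0.2484 over the left-out samples), PEPD at -0.01341 with limma, -0.01436 with upper quartile scaling and -0.02983, -0.01895, -0.05618 and -0.02155 without pcCon sample 2 or 3 or pcYY2 sample 2 or 3 (at most 0.08687), and ENO2 at -0.06173 without pcYY2 sample 2 (at most 0.3671). With the replicate block, 50 of all tested genes were called lower and 51 higher, and of the pathway genes 1 lower and 0 higher; ASS1, ADSL, OAT, GFPT2, STC2, CEBPB and DDIT4 lost their calls. The deviations of samples with the same number correlated at -0.0246, -0.0173 and 0.000366 across genes, which are not independent replicates. Those of samples with different numbers correlated at -0.0341 to 0.0528. With 3 samples per group, each centred on its group mean, these values cannot decide whether the numbers pair the samples. Of the pathway genes, 0 were called higher with a filter of 0.1, with no filter, with limma and with upper quartile scaling. Leaving out 1 sample in turn gave 147 to 393 genes lower and 138 to 412 higher over all tested genes (without pcCon samples 1 to 3 in order 161, 147 and 161 lower and 163, 138 and 150 higher, and without pcYY2 samples 1 to 3 in order 393, 273 and 179 lower and 412, 272 and 175 higher), 1 to 3 and 0 to 1 for the pathway genes, and 2 to 3 and 0 to 0 for the 9 enzymes, each of these fits having 1 sample fewer. The cause of the other changes was not tested. DESeq2 called 726 genes lower and 713 higher. Depth limits PCK2 most among the 9 enzymes, with 300 counts in its lowest sample.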
